A study of Mus musculus with 10 samples.

Results

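Genes of the lipid droplet coat and of lipolysis were followed in mouse liver with and without Pml, whose protein builds the nuclear bodies that carry its name. The set has 10 genes, taken by symbol from the deposited table with the brightest probe set of each: Cidec, Cidea, Cideb, Plin2, Plin3, Plin4, Plin5, G0s2, Pnpla2 and Hilpda. Of these, 9 had a probe set with 1 gene symbol, out of 22180 genes in the table that had one. The probe set of Cideb also carries the symbol of its neighbour Nop9, so Cideb was not analysed here. Cidea stayed below the median of every array and was not tested. The other 8 were tested among 13942 genes, and each of the 8 was above the array median in at least 1 fed array as well as in every fasted array.

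The 10 samples of liver RNA came from female mice of the strain BALB/cByJ, aged 3 months. The RNA was hybridised to Affymetrix Mouse Gene 2.1 ST arrays, which hold probes along the exons of each transcript. The groups were Pml wild type fed ad libitum (2 arrays), Pml knockout fed ad libitum (2 arrays), Pml wild type without food for 6 h (3 arrays) and Pml knockout without food for 6 h (3 arrays). The samples of all groups were kept in RNAlater, and the labels describe neither the Pml allele nor the time of day of collection, and do not say whether each array is a separate animal. Values are log2 of the deposited intensity. Differences carry the standard error (SE) of a limma fit of all 10 arrays and a p-value adjusted over the 13942 genes, and a gene is called changed, higher or lower at an adjusted p under 0.05. The fit takes the same spread for a gene in all groups, so an SE can be too small for a group that varies more. In fasted knockout and fasted wild type the SD was 0.97 and 0.22 for Cidec and 1.04 and 0.28 for Plin5, but 0.12 and 0.13 for Plin3.

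A lipid droplet is a core of triglyceride and sterol ester under a single layer of phospholipid, and the liver stores fatty acids in such droplets and takes them out again for oxidation and secretion. The perilipins coat the surface and control access of lipases, and the CIDE proteins sit where droplets touch and let lipid flow from the smaller to the larger one. Pnpla2 encodes adipose triglyceride lipase (ATGL), which makes the first cut in triglyceride, while G0s2 and Hilpda encode small proteins that bind and inhibit this lipase. In a fast the liver receives fatty acids from adipose tissue, and several of these genes are known targets of the fatty acid receptor PPARalpha.

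The stretches before the transcription starts of 4 genes are shown because 7 of the genes rose together in fasted wild type liver: the CIDE gene Cidec, the perilipins Plin2 and Plin5, whose windows hold matches to the motifs searched, and the lipase gene Pnpla2. RefSeq (GRCm38.p6) had start sites for 9 of the 10 genes, 12 windows in all, each running from 250 bases before the start to 30 bases from the start on, so that position 251 is the start. Cidec and Plin5 each have a pair of start sites in RefSeq, of which the one farther upstream is printed; which start the signal came from was not tested. The windows lie at chr6:113435731-113436010 (minus strand) for Cidec, chr4:86670030-86670309 (minus) for Plin2, chr17:56117519-56117798 (minus) for Plin5 and chr7:141454938-141455217 (plus) for Pnpla2. Capitals mark matches on either strand to AGGTCA, the site of many nuclear receptors, and to CACGTG, the E-box bound by clock and MYC family factors.
Cidec: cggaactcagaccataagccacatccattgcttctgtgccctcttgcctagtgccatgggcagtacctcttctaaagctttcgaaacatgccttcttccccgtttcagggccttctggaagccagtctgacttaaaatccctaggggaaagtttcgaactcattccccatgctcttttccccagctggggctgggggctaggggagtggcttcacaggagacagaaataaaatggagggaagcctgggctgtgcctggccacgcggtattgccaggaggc
Plin2: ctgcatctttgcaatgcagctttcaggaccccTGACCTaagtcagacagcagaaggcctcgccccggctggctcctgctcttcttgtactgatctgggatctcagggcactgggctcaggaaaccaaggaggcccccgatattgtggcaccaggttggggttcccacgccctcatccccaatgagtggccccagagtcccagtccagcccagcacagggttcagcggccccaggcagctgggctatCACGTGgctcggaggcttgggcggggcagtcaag
Plin5: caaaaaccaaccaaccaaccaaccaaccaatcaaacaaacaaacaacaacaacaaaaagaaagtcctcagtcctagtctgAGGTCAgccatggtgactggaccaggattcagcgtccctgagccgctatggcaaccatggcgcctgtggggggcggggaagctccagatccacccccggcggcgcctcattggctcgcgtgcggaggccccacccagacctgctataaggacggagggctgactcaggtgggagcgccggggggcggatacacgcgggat
Pnpla2: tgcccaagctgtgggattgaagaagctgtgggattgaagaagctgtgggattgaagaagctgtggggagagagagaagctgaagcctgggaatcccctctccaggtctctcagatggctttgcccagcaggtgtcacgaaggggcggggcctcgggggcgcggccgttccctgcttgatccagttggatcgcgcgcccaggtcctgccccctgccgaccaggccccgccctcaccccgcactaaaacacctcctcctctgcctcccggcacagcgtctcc
AGGTCA stood in 3 of the 12 windows, those of Plin2 and both of Plin5, against 15.3% of 32851 such windows over all genes. CACGTG stood in that of Plin2 alone, at positions 247 to 252 across the start, against 6.79% of all windows. The direct repeat of AGGTCA with 1 base between, AGGTCANAGGTCA, the preferred form for PPARalpha with its partner RXR, was in none of the 12 and in 0.0365% of all. The forkhead letters TGTTTAC (3.49% of all windows), the D-box TTATGTAA (0.895%) and the cyclic AMP element TGACGTCA (1.74%) were in none of the 12 either. The core ACGTG of hypoxia elements, which is contained in CACGTG, stood in windows of Plin2 and Hilpda (18.5% of all), and TATAAA in that of Cideb (13.1%). These matches describe letters in short windows and not binding. In the RefSeq order of protein-coding genes Plin4 and Plin5 are direct neighbours on chromosome 17, which also holds Plin3, and none of the 10 genes lies on chromosome 9, where Pml is.

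Pml was lower on all 5 knockout arrays, between 6.05 and 6.91 on the log2 scale, than on the 5 wild type arrays, between 7.50 and 8.37 (exact permutation test, two-sided, p = 0.00794, the smallest it can give). Array medians lay between 43.5 and 47.5 intensity units. Of 10 hepatocyte markers all were tested, with a summed intensity of 50672 to 51130 in fed and 51061 to 52349 in fasted wild type, and 50192 to 52301 in fed and 47703 to 52033 in fasted knockout. The lowest sum was that of fasted knockout replicate 1. One marker, Ass1, was called lower in fasted wild type (-1.41, SE 0.37, adjusted p = 0.0234). Its change in knockout was -1.44 (adjusted p = 0.0794). In the other comparisons 0 of the 10 were called (limma, at most 1 at an unadjusted p under 0.05). The fasted knockout arrays fell apart in genes of the circadian clock. Arntl, the clock factor BMAL1, was at 4.60 and 4.53 on fasted knockout replicates 1 and 2 and at 8.87 on replicate 3, against 9.04 to 9.29 on the fasted wild type arrays. Dbp, which the clock factors induce, was at 10.05, 9.80 and 6.00 on those 3 knockout arrays and at 6.07 to 6.64 in fasted wild type. The values of the droplet genes in fasted knockout are therefore given with all 3 arrays and, without replicates 1 and 2. The fit without them has 1 array in that group and assumes that it varies like the other groups. Fed and fasted wild type differed in the clock genes too. Fed wild type replicates 1 and 2 had Arntl at 7.50 and 7.10 and Dbp at 9.50 and 9.58. The part of the clock in the wild type fasting differences was not tested.

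After 6 h without food 7 of the 8 tested genes rose in wild type liver, by 2.88-fold to 57.4-fold, and all 8 had fasted arrays above their fed arrays. Plin3 was the exception among the calls. In this comparison 8.23% of all genes tested were called higher, and for 23% all fasted arrays lay above all fed arrays. The median log2 difference of the 8 genes was 2.57, that of all genes -0.02. The 7 calls held in each of the 10 fits that left out 1 array. With the clock score as a covariate Plin5 alone of the 7 was no longer called (limma, adjusted p = 0.0640).

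**Figure D1:**
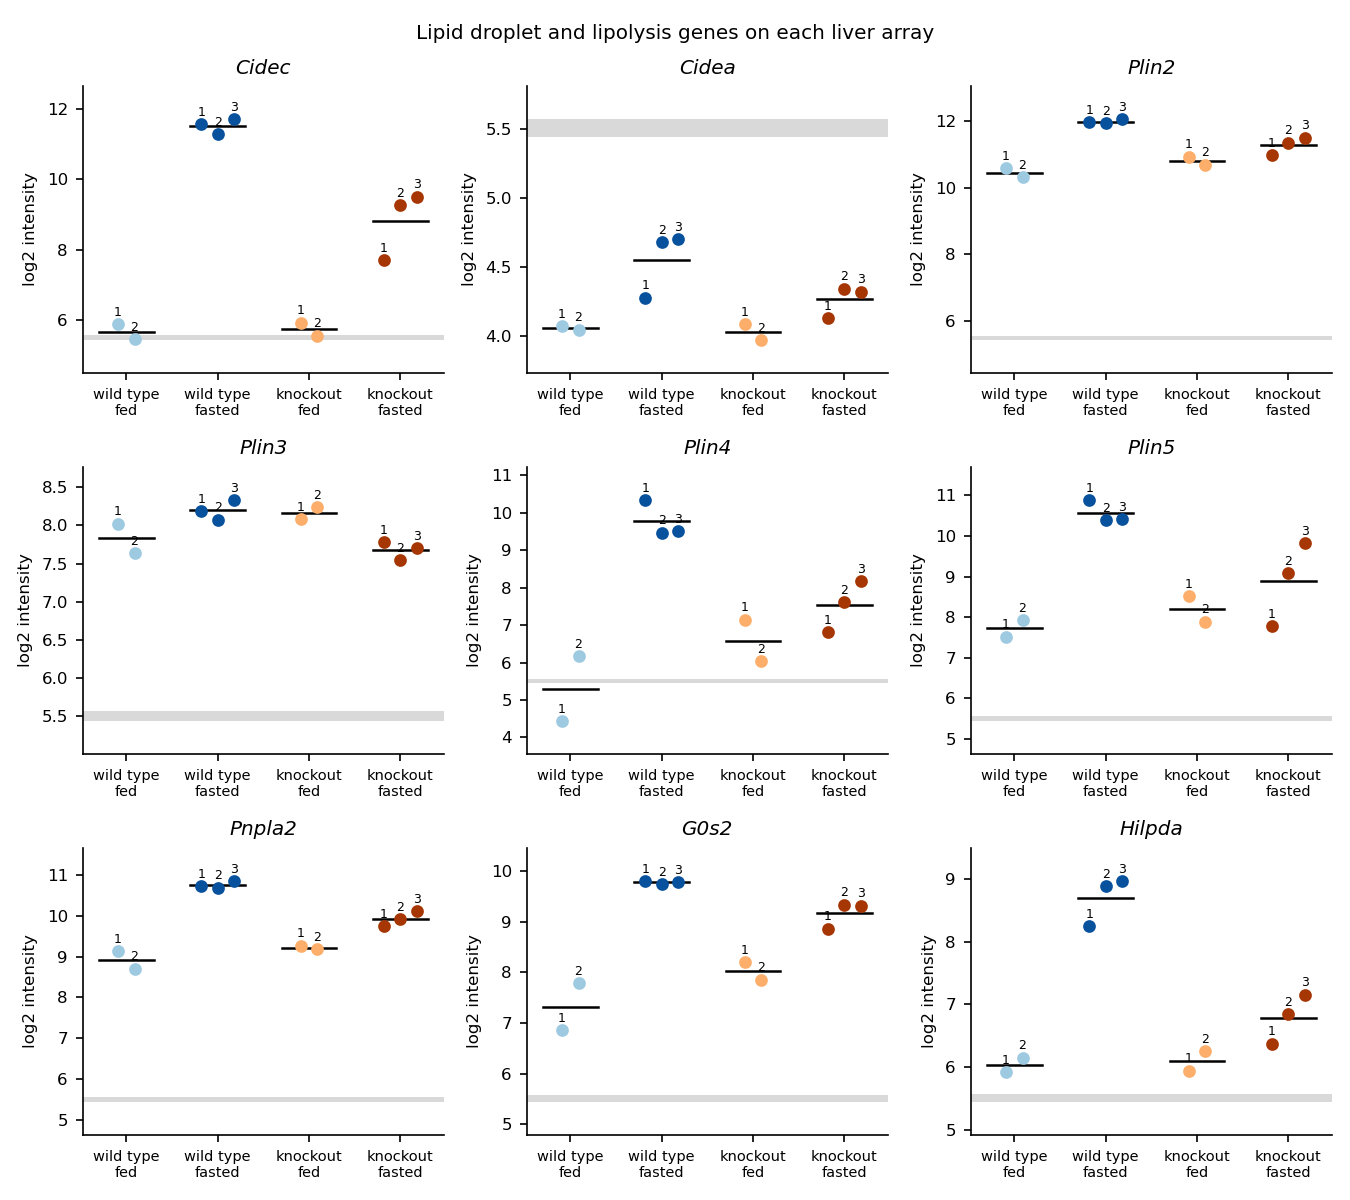
Log2 intensity (vertical axis) of 9 genes on each of the 10 arrays, by genotype and feeding state; each point is 1 array with its replicate number, the black line is the group mean and the grey band is the range of array medians. Fasted wild type arrays lay above fed wild type arrays for each of the 9 genes, fasted knockout arrays lay below the fasted wild type arrays for each gene but Cidea, and Cidea stayed under the grey band.

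Cidec, whose product enlarges droplets and is abundant in white fat and in fatty liver, was the CIDE gene that could be tested. Its values were 5.89 and 5.47 in fed wild type and 11.57, 11.28 and 11.71 in fasted wild type, a difference of 5.84 (SE 0.44, adjusted p = 0.000218). One of the fed wild type values lay under the median of its array, so the fold of 57.4 rests on a fed level near the lower limit of measurement. In knockout it went from 5.93 and 5.56 to 7.71, 9.27 and 9.50, a difference of 3.08 (SE 0.44, adjusted p = 0.0278), or 8.48-fold. Fed arrays of both genotypes overlapped, and every fasted knockout array lay below every fasted wild type array. Cidec was the 1 gene of the 8 called in fasted knockout, where 0.811% of all genes were called higher. That call was lost without either fed knockout replicate, and without fasted knockout replicate 2 or 3 (adjusted p up to 0.184 over all alternatives). With replicate 3 as the 1 fasted knockout array, and an SE taken from the spread of the other groups, the difference was 3.76 (SE 0.26, adjusted p = 0.00581). Cidea, the CIDE gene of brown fat that also appears in steatotic liver, lay between 3.97 and 4.70 on all arrays. The 3 fasted wild type values of Cidea were 4.28, 4.68 and 4.70, those of fasted knockout 4.13, 4.34 and 4.32, and the 4 fed values ran from 3.97 to 4.09.

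Plin2, the perilipin that coats most hepatocyte droplets, was at 10.58 and 10.32 in fed wild type and at 11.95, 11.92 and 12.05 after the fast, a rise of 1.53 (SE 0.16, adjusted p = 0.000592), or 2.88-fold. Fed knockout gave 10.93 and 10.69 and fasted knockout 10.96, 11.35 and 11.50, a difference of 0.46 (95% confidence interval 0.09 to 0.83, adjusted p = 0.172). The fasted knockout values were above both fed knockout values, replicate 1 only just. Plin5, the perilipin of oxidative tissues that ties droplets to mitochondria, rose from 7.52 and 7.92 to 10.88, 10.38 and 10.41 in wild type, or 7.14-fold (2.84, SE 0.48, adjusted p = 0.00373). In knockout its fed values were 8.51 and 7.89 and its fasted values 7.77, 9.08 and 9.82, which overlapped (0.69, 95% confidence interval -0.38 to 1.77, adjusted p = 0.464). Replicate 1 of fasted knockout was below both fed knockout arrays and replicate 3 came nearest to the fasted wild type arrays.

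Plin4, a perilipin of adipocytes and muscle with long amphipathic repeats, had the largest SE of the 8 genes. It was at 4.44 and 6.16 in fed wild type, the first of them under the array median, and at 10.34, 9.47 and 9.51 in fasted wild type (4.47, SE 0.56, adjusted p = 0.001), or 22.2-fold. Without fed wild type replicate 1 the rise was 3.61 and without replicate 2 it was 5.33. In knockout it was at 7.14 and 6.03 fed and at 6.82, 7.62 and 8.18 fasted, again overlapping (0.95, 95% confidence interval -0.30 to 2.20, adjusted p = 0.389). Plin3, which is found throughout the body and moves from the cytosol to new droplets, differed from the other perilipins. It went from 8.03 and 7.63 to 8.19, 8.08 and 8.33 in wild type (0.37, 95% confidence interval 0.05 to 0.69, adjusted p = 0.0962) and from 8.08 and 8.24 to 7.78, 7.55 and 7.71 in knockout (-0.48, 95% confidence interval -0.80 to -0.16, adjusted p = 0.120). So the fasted arrays of Plin3 were above the fed ones in wild type and below them in knockout, and neither difference passed the test.

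Pnpla2, the lipase gene itself, was at 9.13 and 8.71 in fed wild type and at 10.73, 10.69 and 10.85 in fasted wild type, a rise of 1.83 (SE 0.15, adjusted p = 0.000251), or 3.57-fold. Knockout gave 9.27 and 9.18 fed and 9.75, 9.92 and 10.11 fasted (0.70, 95% confidence interval 0.36 to 1.04, adjusted p = 0.0530). All fasted knockout values lay between the fed and the fasted wild type values, with the narrowest spread of the 7 genes that rose. G0s2, the lipase inhibitor, rose in wild type from 6.85 and 7.78 to 9.80, 9.75 and 9.79 (2.46, SE 0.25, adjusted p = 0.000536), or 5.50-fold. In knockout it was at 8.20 and 7.86 fed and at 8.86, 9.34 and 9.32 fasted (1.15, 95% confidence interval 0.59 to 1.71, adjusted p = 0.0540). Its dimmer second probe set lay under the array median on all 4 fed arrays and rose to 6.43, 6.22 and 6.17 in fasted wild type and to 5.54, 5.48 and 5.78 in fasted knockout. Fitted among all kept probe sets, this second one gave 2.12 (SE 0.14, adjusted p = 0.000358) in wild type and 1.26 (SE 0.14, adjusted p = 0.0268) in knockout, where the brighter one gave an adjusted p of 0.0952. Hilpda, the hypoxia-induced inhibitor of the same lipase, rose from 5.92 and 6.15 to 8.25, 8.89 and 8.97 in wild type, or 6.39-fold (2.67, SE 0.26, adjusted p = 0.000453). Its knockout values were 5.94 and 6.26 fed and 6.37, 6.84 and 7.16 fasted (0.69, 95% confidence interval 0.11 to 1.28, adjusted p = 0.192), so that every fasted knockout array lay between the fed and the fasted wild type arrays.

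**Figure D2:**
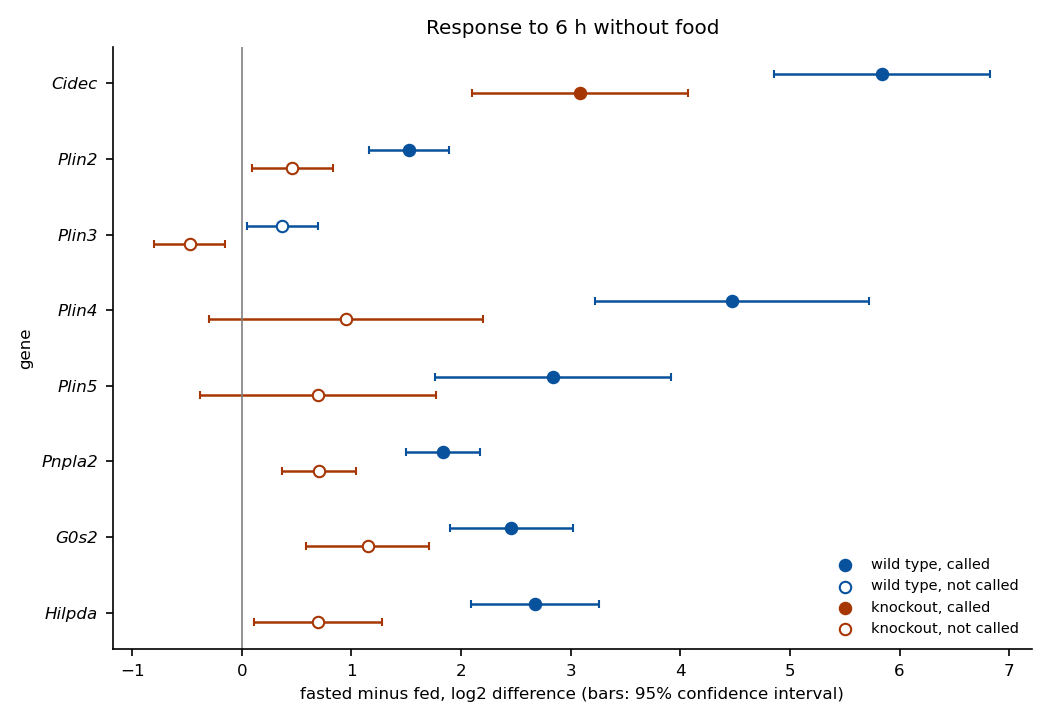
Log2 difference between fasted and fed arrays (horizontal axis) in wild type and in knockout for the 8 tested genes; bars are 95% confidence intervals of the limma fit, filled points were called at an adjusted p under 0.05. The wild type point lies to the right of the knockout point for each gene, and 7 wild type points and 1 knockout point are filled.

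Without fasted knockout replicates 1 and 2 the fasting responses in knockout were 0.69 for Plin2 (adjusted p = 0.0885), -0.45 for Plin3 (0.256), 1.59 for Plin4 (0.273), 1.62 for Plin5 (0.0567), 1.29 for G0s2 (0.0974), 0.89 for Pnpla2 (0.0687) and 1.06 for Hilpda (0.115). None of these 7 was called in that fit, as with all arrays.

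In fed liver 0 of the 8 genes were called between knockout and wild type by limma, with 1 (G0s2) at an unadjusted p under 0.05; 0.0861% of all genes were called here. All 8 differences were above 0, with a median of 0.34 against -0.02 for all genes, and 4 genes had both knockout arrays above both wild type arrays, against 16.2% of all genes. G0s2 differed by 0.71 (95% confidence interval 0.09 to 1.32, adjusted p = 0.492) and Plin4 by 1.29 (95% confidence interval -0.08 to 2.66, adjusted p = 0.614). Leaving out fed wild type replicate 1 or 2 gave 0.24 or 1.17 for G0s2 and 0.43 or 2.15 for Plin4, so that both values rest on single arrays. Without fed knockout replicate 1 or 2 Plin4 gave 0.73 or 1.84. The dimmer second probe set of G0s2, fitted among all kept probe sets, gave a fed difference of 0.19 (SE 0.16, adjusted p = 0.844). Its fed arrays of both genotypes overlapped. Cidec (0.07, 95% confidence interval -1.01 to 1.15) and Hilpda (0.07, 95% confidence interval -0.57 to 0.71) gave the smallest differences, and the width of these intervals does not show that the genotypes were alike.

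After the fast most of the genes were lower in knockout. Of the 8, all but G0s2 were called lower, Plin3 included, and all 8 had knockout arrays below every wild type array, where 4.43% of all genes were called lower and 15.1% had all knockout arrays below all wild type arrays. Cidec was at 15.5% of the fasted wild type level (-2.69, SE 0.39, adjusted p = 0.00685), Plin4 at 21.2% (-2.24, SE 0.50, adjusted p = 0.0242), Hilpda at 26.5% (-1.91, SE 0.23, adjusted p = 0.00443) and Plin5 at 31.5% (-1.67, SE 0.43, adjusted p = 0.0377). Pnpla2 was at 56.3% (-0.83, SE 0.13, adjusted p = 0.00907), Plin2 at 61.4% (-0.70, SE 0.15, adjusted p = 0.0192) and Plin3 at 69.7% (-0.52, SE 0.13, adjusted p = 0.0331). G0s2, at 65.8%, was not called (-0.60, 95% confidence interval -1.11 to -0.10, adjusted p = 0.110). Its dimmer second probe set, fitted among all kept probe sets, was called lower (-0.67, SE 0.13, adjusted p = 0.0297). The brighter one had an adjusted p of 0.165 in that fit. In whole liver, fewer cells of a type and less RNA per cell cannot be told apart. This comparison shares the fasted wild type arrays with the wild type fasting comparison, so the values of both stand side by side and are not independent.

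Single arrays moved this count. It was 3, 4 and 3 without fasted wild type replicates 1, 2 and 3 and 3 without fasted knockout replicate 1, and Cidec, Pnpla2 and Hilpda were called in each fit that left out 1 array. Without fasted knockout replicates 1 and 2 together, which left 1 array in that group and assumes that it varies like the others, 0 of the 8 were called by limma and 6 had an unadjusted p under 0.05; 6 genes of the whole table were called in that fit. The differences were then -2.02 for Cidec (adjusted p = 0.0620), -1.55 for Hilpda (0.0780), -0.64 for Pnpla2 (0.140), -1.59 for Plin4 (0.276), -0.74 for Plin5 (0.254), -0.48 for Plin2 (0.191), -0.49 for Plin3 (0.225) and -0.46 for G0s2 (0.486). With a score of 11 clock genes as a covariate the count was again 0, with 6 at an unadjusted p under 0.05, and Cidec differed by -1.94 (adjusted p = 0.109). Replicate 3, whose Arntl and Dbp levels were near those of fasted wild type, lay below the lowest fasted wild type array for each of the 8 genes, as the other replicates did.

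**Figure D3:**
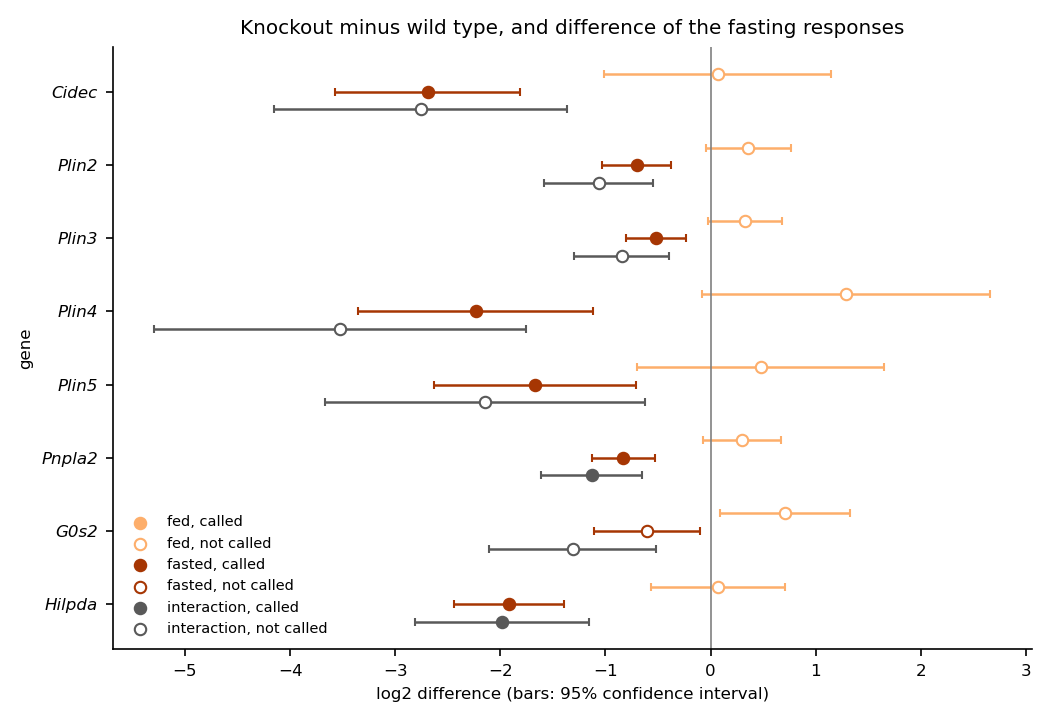
Log2 difference between knockout and wild type (horizontal axis) in fed and in fasted liver, and the interaction, which is the fasting response of knockout minus that of wild type, for the 8 tested genes; bars are 95% confidence intervals and filled points were called. All fed points lie to the right of 0, and all fasted and interaction points lie to the left of it.

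The interaction asks whether the fasting response itself differed between the genotypes. For all 8 genes the response was smaller or opposite in knockout, with an unadjusted p under 0.05 for each, and 2 of the 8 passed the adjusted threshold, where 0.789% of all genes were called lower. These were Pnpla2 (-1.13, SE 0.21, adjusted p = 0.0391) and Hilpda (-1.98, SE 0.37, adjusted p = 0.0370). Next came Plin2 (-1.06, SE 0.23, adjusted p = 0.0508), Plin4 (-3.52, SE 0.79, adjusted p = 0.0556), Cidec (-2.76, SE 0.62, adjusted p = 0.0565) and Plin3 (-0.85, SE 0.20, adjusted p = 0.0637). G0s2 (-1.31, SE 0.35, adjusted p = 0.0888) and Plin5 (-2.14, SE 0.68, adjusted p = 0.129) were farther from the threshold. The median over the 8 was -1.65, and that over all genes 0.04. The count ran from 0 to 6 when 1 array was left out. Omitting either fed knockout array, fasted knockout replicate 2, or replicate 2 or 3 of fasted wild type gave 0 by limma. Omitting replicate 1 of fed wild type, of fasted wild type or of fasted knockout gave 1. The gene called was Pnpla2, Hilpda and Cidec in turn. Without fasted knockout replicate 3 the count was 6. The count was also 0 without fasted knockout replicates 1 and 2 together, where Pnpla2 gave -0.94 (adjusted p = 0.122) and Hilpda -1.62 (adjusted p = 0.106), and in all these fits each of the 8 genes kept an unadjusted p under 0.05.

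The 3 fasted knockout arrays were set one by one against the wild type response. For each of the 7 genes that rose in wild type, the change on a knockout array from the fed knockout mean was taken as a percent of the mean wild type change on the log2 scale. Replicate 1 had the lowest value for all 7, with a median of 10.3%, followed by 35.3% for replicate 2 and 48.5% for replicate 3. Cidec kept 33.7%, 60.4% and 64.3% on replicates 1, 2 and 3, and Plin5 -14.9%, 31.1% and 57.2%. Hilpda kept 10.3%, 27.8% and 39.5%, and Plin4 5.14%, 23.0% and 35.6%. The clock genes divided the arrays otherwise. Arntl gave -68.3%, -71.6% and 161% and Dbp -3.09%, 4.79% and 127%, so that by these genes replicates 1 and 2 were alike and replicate 3 was apart. Among the droplet genes Cidec and G0s2 had replicates 2 and 3 close together and replicate 1 apart, while for Plin2, Plin4, Plin5, Pnpla2 and Hilpda the 3 arrays lay apart from each other.

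**Figure D4:**
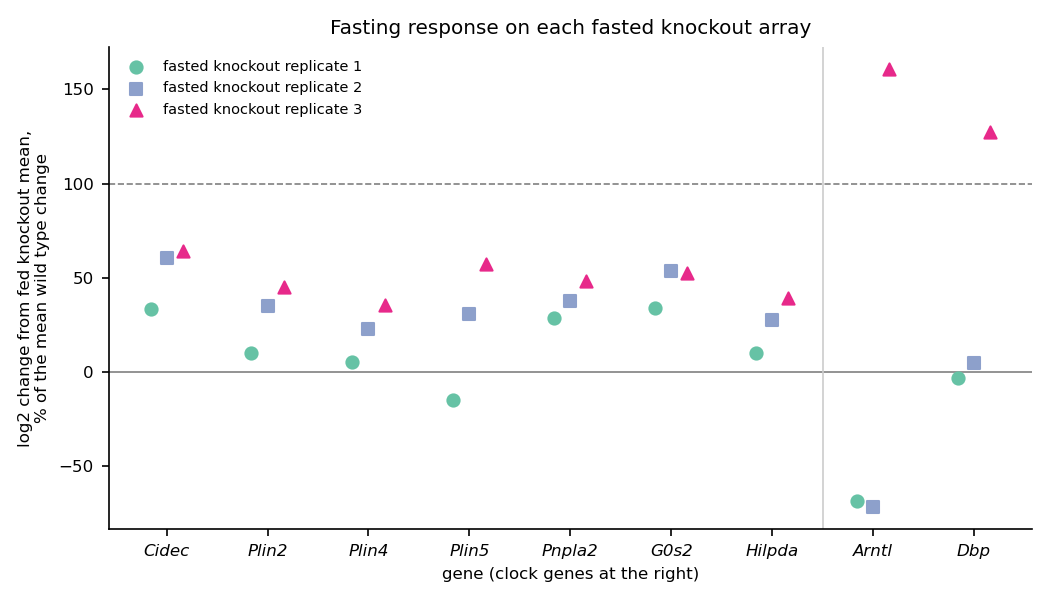
Change on each fasted knockout array from the fed knockout mean, as a percent of the mean wild type fasting change in log2 (vertical axis), for 7 genes that rose in wild type and for the clock genes Arntl and Dbp; 0 is the fed knockout mean and the broken line at 100 is the wild type change. Every point of the 7 genes lies below 65, and replicate 1 is lowest for each of them.

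Other genes of lipid droplets and lipolysis moved less. From a list of 30 such genes 28 were tested. Of these, 6 rose and 0 fell in fasted wild type liver, where 8.23% of all genes were called higher. The median difference of the 28 was 0.08. The smallest p-values were those of Fitm2, which helps droplets bud from the endoplasmic reticulum, at 1.82 (SE 0.20, adjusted p = 0.000657), the monoacylglycerol lipases Abhd6 (1.01, SE 0.15, adjusted p = 0.00212) and Mgll (0.82, SE 0.15, adjusted p = 0.00506) and the droplet enzyme Hsd17b11 (0.61, SE 0.11, adjusted p = 0.00472). In knockout 1 of the 28, Fitm2, rose (0.97, SE 0.20, adjusted p = 0.0483), where 0.811% of all genes were called higher. Between the fasted genotypes 1 of 28, Abhd6, was lower in knockout (-0.51, SE 0.14, adjusted p = 0.0409), with a median of -0.14, a share of the list below the 4.43% of all genes called lower there. In this list 0 were called in the fed comparison (limma; 1 at an unadjusted p under 0.05) or the interaction (limma; 6 at an unadjusted p under 0.05). Without fasted knockout replicates 1 and 2 the differences were 1.13 for Fitm2 in knockout (adjusted p = 0.0741) and -0.51 for Abhd6 (adjusted p = 0.199), and neither was called. Leaving out 1 array ended the call of Fitm2 in at least 9 of 10 fits, and that of Abhd6 without any 1 fasted wild type array or without fasted knockout replicate 1 or 3. With the clock score as a covariate 3 of the 28 rose in fasted wild type. In that fit 0 were called in fasted knockout or between the fasted genotypes (limma, 3 and 2 at an unadjusted p under 0.05).

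Target genes of PPARalpha were taken as a second list, of which 15 of 20 were tested. In fasted wild type liver 13 rose and 0 fell, with a median of 1.67, where 8.23% of all genes were called higher. The smallest p-values were those of Pex11a, which divides peroxisomes (2.26, SE 0.16, adjusted p = 0.000218), the thioesterase Acot2 (18.4-fold, SE 0.35 in log2, adjusted p = 0.000251) and the lipase inhibitor Angptl4 (2.11, SE 0.22, adjusted p = 0.000558). In knockout 2 rose, where 0.811% of all genes were called higher. These were Acot2 (1.69, SE 0.35, adjusted p = 0.0483) and Pex11a (0.86, SE 0.16, adjusted p = 0.0436), and the list median was 0.54. Without fasted knockout replicate 1 the count was 5 and the median 0.89. It was 1 without either fed wild type array and 0 without any other single array (limma; 5 to 9 at an unadjusted p under 0.05). Between the fasted genotypes 5 were lower in knockout, where 4.43% of all genes were called lower. The list median was -0.52, with Pdk4, the kinase that blocks pyruvate dehydrogenase, at -3.19 (SE 0.61, adjusted p = 0.0137). The count was 3 and 2 without fasted wild type replicates 2 and 3, and 3 without fasted knockout replicate 1, where the median was -0.29. For the interaction 0.789% of all genes were called lower. In this list it was called for Acot2 (-2.52), Angptl4 (-2.02) and Pex11a (-1.40), with adjusted p = 0.0426, 0.0277 and 0.0278. These calls fell to 0 without either fed knockout array or any 1 fasted wild type array (limma; 6 to 10 at an unadjusted p under 0.05), to 1 without fed wild type replicate 1, and were 5 without fasted knockout replicate 3. With the clock score as a covariate 8 rose in fasted wild type, with a median of 1.10. In that fit 0 were called in fasted knockout, between the fasted genotypes or in the interaction (limma, 9, 3 and 7 at an unadjusted p under 0.05). The median between the fasted genotypes was then -0.18 and that of the interaction -0.75. Of the 10 list genes with a wild type change of 2-fold or more, fasted knockout replicate 1 had the smallest change in 10, as it did for the droplet genes. Without fasted knockout replicates 1 and 2, 2 of the 15 rose in knockout, Pdk4 (2.73, adjusted p = 0.00682) and Acot2 (1.98, adjusted p = 0.0401), with a median of 0.97. In that fit Pdk4 alone was lower in fasted knockout (-1.92, adjusted p = 0.0454), with a median of -0.22. The interaction had 0 calls there (limma; 7 at an unadjusted p under 0.05) and a median of -0.61.

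**Figure D5:**
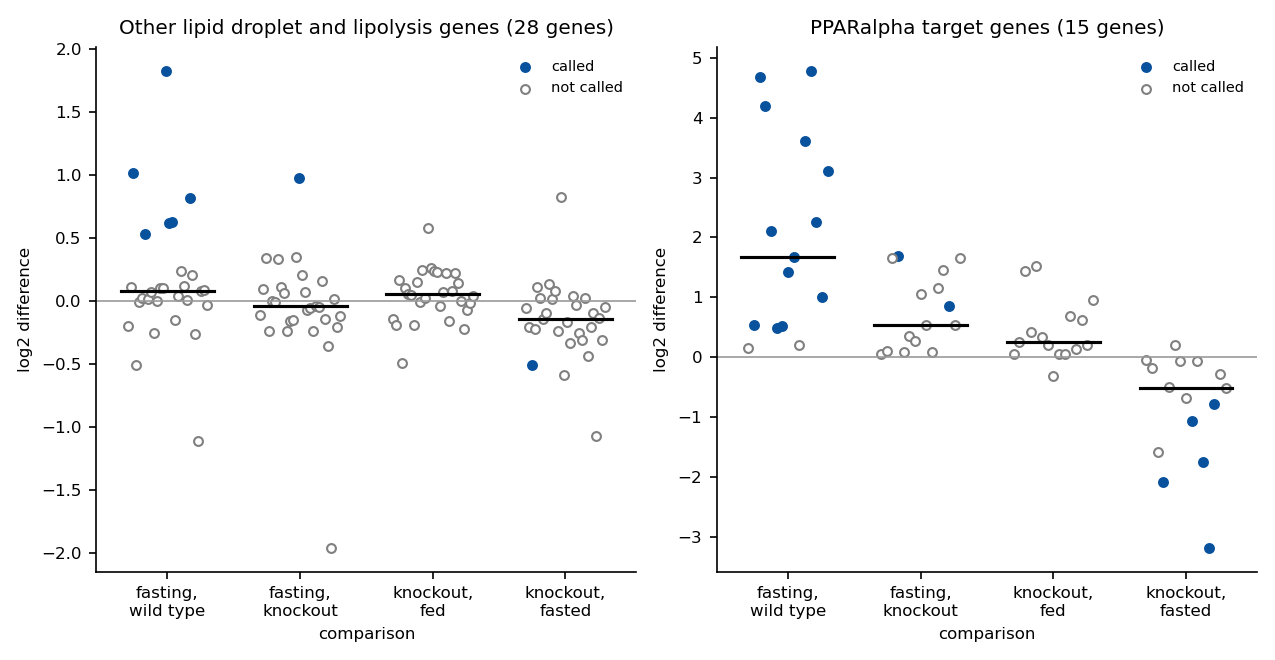
Log2 difference (vertical axis) of each tested gene of the list of other lipid droplet and lipolysis genes (left) and of the list of PPARalpha targets (right) in 4 comparisons; filled points were called and the black line is the median. The medians of the PPARalpha list run from 1.67 for fasting in wild type to 0.54 for fasting in knockout and -0.52 for knockout against wild type after the fast, while those of the other list stay between -0.14 and 0.08.

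Levels of factors known to act on droplet genes were read on the same arrays. Ppara itself rose in fasted wild type (0.63, SE 0.16, adjusted p = 0.0227), and its means in log2 were 9.97 ± 0.26 (SD, n = 2) in fed wild type, 10.60 ± 0.21 (SD, n = 3) in fasted wild type, 10.48 ± 0.01 (SD, n = 2) in fed knockout and 10.34 ± 0.18 (SD, n = 3) in fasted knockout. Between the fasted genotypes the difference of Ppara was -0.26 (SE 0.15, adjusted p = 0.271). Pparg, the adipocyte relative that induces Cidec and Plin4 in fat, was higher in fasted knockout, at 8.51, 7.99 and 8.14 against 7.46, 7.25 and 7.58 in wild type (0.78, SE 0.17, adjusted p = 0.0219), while Cidec and Plin4 were lower. Its part in their levels was not tested. Hif1a, the hypoxia factor, was lower in fasted knockout (-0.44, SE 0.11, adjusted p = 0.0360). Without fasted knockout replicates 1 and 2 neither was called, at 0.70 for Pparg (adjusted p = 0.161) and -0.41 for Hif1a (adjusted p = 0.209). Srebf1, the regulator of lipogenesis, fell in wild type (-2.80, SE 0.39, adjusted p = 0.00166) and in knockout (-2.11, SE 0.39, adjusted p = 0.0415), and was at 8.68, 7.71 and 7.07 on fasted knockout replicates 1, 2 and 3 against 6.84 to 7.20 in fasted wild type.

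Markers of other cell types that hold droplets were read beside these results. Of 9 adipocyte markers with a probe set 4 were tested and 0 were called in any of the 5 comparisons (limma). At an unadjusted p under 0.05 were Fabp4 in fasted wild type (0.81, adjusted p = 0.0503), Plin1 and Adipoq in fasted knockout against fed, and Adipoq between the fasted genotypes. The summed intensity of the 9 markers was 440 to 488 in fed and 553 to 648 in fasted wild type, and 495 to 499 in fed and 489 to 644 in fasted knockout. Fabp4 weighs most in this sum, with geometric means of 188 in fed and 331 in fasted wild type. In the same groups Adipoq was at 40.0 and 44.1 and Adig at 49.6 and 57.7, but Plin1 at 45.4 and 37.8 and Retn at 42.8 and 35.6. Lep, Retn, Acvr1c and Slc7a10 lay under the array median on all arrays, and Plin1, the perilipin of fat cells, did on all 6 fasted arrays. Fabp4 and Adig lay above it on all 10 arrays, and Adipoq on 1 fasted wild type and all 3 fasted knockout arrays. Adipoq was at 5.32 in fed and 5.46 in fasted wild type and at 5.31 and 5.71 in fed and fasted knockout. Of 6 stellate cell markers, the cells that store retinyl esters in droplets, Lrat fell (-1.04, SE 0.20, adjusted p = 0.00706) and Hgf rose (0.44, SE 0.14, adjusted p = 0.0480) in fasted wild type, and 0 were called between the fasted genotypes (limma; 2 at an unadjusted p under 0.05). Their summed intensity was 5466 to 5748 in fed and 5839 to 5942 in fasted wild type, and 4758 to 5523 in fed and 5349 to 5638 in fasted knockout. Of 6 Kupffer cell markers 2 fell in fasted wild type, Adgre1 (-0.57, SE 0.11, adjusted p = 0.00640) and Csf1r (-0.35, SE 0.11, adjusted p = 0.0432). In fasted knockout 3 were higher than in fasted wild type, Cd5l (0.65, SE 0.17, adjusted p = 0.0407), Adgre1 (0.54, SE 0.10, adjusted p = 0.0118) and Csf1r (0.38, SE 0.09, adjusted p = 0.0335). Without fasted knockout replicates 1 and 2 these were 0.53, 0.58 and 0.37 and none was called (adjusted p = 0.244, 0.116 and 0.213). Over all 13942 genes, with each array centred, 1669 were called lower in fasted than in fed wild type. In the same fit 1036 were called higher in fasted knockout than in fasted wild type. The summed intensity of the 6 Kupffer cell markers was 2786 to 3381 in fed and 2589 to 2707 in fasted wild type, and 2897 to 3158 in fed and 3069 to 3479 in fasted knockout. The 3 markers not called between the fasted genotypes were Clec4f, Marco and Vsig4. Their log2 means in fasted wild type and fasted knockout were 9.33 and 9.32, 6.18 and 6.16, and 10.23 and 10.54. In fed wild type they were at 9.29, 6.14 and 10.41. The part of these markers in the wild type rise of the droplet genes and in their genotype difference was not tested. Of 6 sinusoidal endothelial markers 0 were called in any comparison (limma; at most 2 at an unadjusted p under 0.05).

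Genes with the pattern most like that of 3 droplet genes were listed by the mean absolute difference over the 10 arrays, each gene centred on its own mean. Closest to Cidec were the stress gene Gadd45b at 0.55, Pdk4 at 0.66, Acot2 at 0.73, Acot1 at 0.79 and Gadd45g at 0.91. For Plin2 they were Usp38 at 0.09, Elmod3, Oser1 and Gpat3 at 0.11, and Rassf2 at 0.13. Pnpla2 was closest to Plin2 at 0.14, followed by Rnf113a2 at 0.14 and by Pla2g12a, Ppp2r2d and Gpat3 at 0.15. Among the 8 genes themselves Cidec lay farthest from the rest, with Plin4 nearest to it at 0.97. Plin4 was nearest to Plin5 (0.51), while Plin5 was nearest to G0s2 (0.45), and Plin3 was nearest to Plin2 (0.52).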

How the data were processed

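For each of the 10 arrays the authors deposited a linear, normalized intensity for every probe set. The submitters' processing notes name RMA and Affymetrix Expression Console; no version, library file or build is given in the sources used here. The log2 of each value was taken with no further normalization. The platform table gave 1 symbol to 23521 of 41345 probe sets, several to 1814 and none to 16010, and probe sets with several name no gene here. A probe set was kept above the array's 50th percentile on at least 2 arrays, the brightest standing for its gene. Group means were fitted in limma 3.58.1 (R 4.3.3), moderated by empirical Bayes (3.63 prior and 6 residual degrees of freedom), and Benjamini-Hochberg adjustment; tests use the spread between samples, which may be technical, and the number of arrays limits the precision.

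The members, lists and rule for naming genes (the members, up to 4 list genes with the smallest p, and the 5 genes most alike) were chosen with earlier results of these data known; some gene names in the text (the PPARalpha gene Pdk4, single markers, single regulators) were picked after values were seen. On simulated data for fasting in wild type (13942 genes) the fit recovered 84% of genes changed by 1 on the log2 scale and 96% of those changed by 2. The simulation drew independent values with the same spread in all groups and changed 50 genes at each size. It called 11 unchanged genes, and it does not give the power of the real comparisons. Alternatives were other scalings and filters, the mean of probe sets, other moderation, a replicate block, a clock covariate and omitted arrays. Promoter windows are RefSeq's.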

Additional observations from a re-analysis of the deposited data

Results flagged for a closer look

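The fasting response of 3 genes was singled out because it differed between knockout and wild type. That of Pnpla2, the triglyceride lipase, was smaller in knockout by -1.13 on the log2 scale (SE 0.21, adjusted p = 0.0391 in limma), and that of its inhibitor Hilpda by -1.98 (SE 0.37, adjusted p = 0.0370). In each, every fasted array lay above every fed array of its genotype. Over 19 alternatives the direction held in all 19, and the call held in 7 for Pnpla2 and in 8 for Hilpda. Without fed wild type replicate 2 neither was called, while Plin4 and G0s2 were. For Plin3 all fasted arrays lay above the fed arrays in wild type and below them in knockout, and the difference of the responses was -0.85 (SE 0.20, adjusted p = 0.0637), which did not pass the threshold.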

How the results depend on the processing

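With 2 fed and 3 fasted arrays a group, counts of called genes among the 8 and some differences rested on single arrays. Of 792 recomputed differences of single genes, 683 kept direction and side of the threshold, 73 fell short of it, 32 newly passed it and 4 changed direction. The response of Plin5 in knockout ran from 0.23 to 1.62 over the alternatives and its difference between fasted genotypes from -2.13 to -0.68. The 4 were these: in fed liver Cidec turned to -0.14 without fed wild type replicate 2 and to -0.12 without fed knockout replicate 1 (range -0.14 to 0.28 when 1 array was left out), and Hilpda to -0.048 without fed wild type replicate 1 and to -0.089 without fed knockout replicate 2 (range -0.089 to 0.225). For fasting in knockout the count of 1 became 2 with centring of each array or the mean of probe sets, 3 with quantile normalization, the stricter filter or trend and robust moderation, 0 with no filter or the groups of the contrast alone (limma; 6 at an unadjusted p under 0.05 in each), and 0 to 3 when 1 array was left out. For knockout against wild type after the fast the count of 7 became 3 with no filter, 0 with the clock score as covariate, 0 without fasted knockout replicates 1 and 2, and 3 to 8 when 1 array was left out. For the interaction the count of 2 became 4 with quantile normalization or trend and robust moderation, 6 with the stricter filter, 0 with no filter, 0 with the clock covariate, 0 without fasted knockout replicates 1 and 2, and 0 to 6 when 1 array was left out. The filters changed how many genes were tested; the other causes were not tested. For fasting in wild type the count stayed between 6 and 8, and for fed liver at 0 (limma; 0 to 4 at an unadjusted p under 0.05). With the replicate number as a block the count was 0 for fasting in knockout, 1 for the interaction, 6 after the fast and 7 for fasting in wild type. The labels state no pairing, so the numbers were not taken to pair the arrays. Same-numbered arrays correlated between -0.17 and 0.11 in their deviations from the group means. With 2 or 3 arrays a group these deviations are tied to each other, so the correlations cannot show or exclude pairing. Over all genes tested, 234 calls for fasting in knockout became 10 with no filter and 504 with trend and robust moderation, and 294 for the interaction became 4 and 520. Dim fed levels limit the fold changes of Cidec and Plin4. The Pml difference lay between -1.75 and -1.52 when 1 array was left out, an alternative chosen after seeing the data.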
